A study of Mus musculus with 6 samples.

Results

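Genes of meiotic prophase, which build the chromosome axis and the synaptonemal complex and carry out recombination, were followed in fetal gonads of Sox9 mutant and wild-type mice. The members were 40 listed genes, and 36 of them had a probe set annotated to that gene alone, out of 19937 genes so represented on the array. Syce3, Mnd1, Rad51ap2 and Rnf212 had none and were not analysed, and Sgol2 was read under its current symbol Sgo2a. Where a gene had several probe sets, the one with the highest mean over the 6 arrays stood for it.

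RNA came from gonads dissected at E13.5 (embryonic day) without the mesonephros and was hybridised to Affymetrix arrays, 1 array per pool. The Sox9flox/flox; Sf1:creTr/+ group, called the Sox9 mutant here, had 3 arrays (label numbers 3, 4 and 6), each from a pool of 12 gonads. The wild-type group had 3 arrays (numbers 1, 2 and 5), each from a pool of 6 gonads, and both groups were of mixed C57BL6/J and 129 background. In the mutant a Cre recombinase under control of Sf1 (Nr5a1), a gene of the somatic cells of the gonad, acts on floxed alleles of Sox9, the transcription factor of Sertoli cells. Neither the floxed alleles alone nor the Cre alone were hybridised, pool size went with genotype, and the labels give no embryo sex, litter or batch. The p-values therefore measure the spread between these pools, which may be partly technical.

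Germ cells of the fetal ovary enter meiosis at about the stage sampled here, whereas those of the fetal testis stop dividing and do so only after birth. In meiotic prophase, cohesin and axis proteins first organise each chromosome into loops, and SPO11 then cuts the DNA. The meiotic recombinase DMC1 helps pair each cut end with the homologous chromosome, the synaptonemal complex zips the homologs together, and MutS and MutL homologs turn a few of the joints into crossovers. RNA of the gonad mixes germ and somatic cells, so fewer cells of a type and less RNA per cell cannot be told apart in these values.

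The promoters of 6 members are shown because they belong to genes that rose, at least 1 from each of the axis, cohesin, central region, strand exchange and late recombination roles. Each is the stretch from 180 bases before to 10 bases after the gene's start in RefSeq (GRCm38.p6), on the strand of the gene, with 5′ at the left. Capitals mark matches, on either strand, to CNCCTCAG (described for binding of STRA8), GCGGGAA (bound by E2F factors) or CACGTG (the E-box); no match overlaps another.
Sycp3 (chr10:88459407-88459596, plus strand): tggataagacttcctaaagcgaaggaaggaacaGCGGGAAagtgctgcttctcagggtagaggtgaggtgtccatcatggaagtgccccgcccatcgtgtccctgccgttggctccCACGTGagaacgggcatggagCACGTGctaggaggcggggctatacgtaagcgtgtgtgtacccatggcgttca
Smc1b (chr15:85131948-85132137, minus strand): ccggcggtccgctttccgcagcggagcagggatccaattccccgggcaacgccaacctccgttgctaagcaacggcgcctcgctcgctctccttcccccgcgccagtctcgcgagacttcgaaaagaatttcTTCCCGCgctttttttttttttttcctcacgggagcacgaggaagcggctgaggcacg
Stag3 (chr5:138280329-138280518, plus strand): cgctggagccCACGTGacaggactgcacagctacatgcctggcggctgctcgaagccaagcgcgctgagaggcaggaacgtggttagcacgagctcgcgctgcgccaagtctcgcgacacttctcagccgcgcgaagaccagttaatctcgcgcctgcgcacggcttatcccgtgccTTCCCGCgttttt
Tex12 (chr9:50561259-50561448, minus strand): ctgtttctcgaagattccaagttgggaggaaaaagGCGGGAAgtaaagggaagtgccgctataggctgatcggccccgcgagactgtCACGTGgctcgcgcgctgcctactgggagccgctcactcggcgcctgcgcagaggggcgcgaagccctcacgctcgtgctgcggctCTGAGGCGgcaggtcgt
Hfm1 (chr5:106925881-106926070, minus strand): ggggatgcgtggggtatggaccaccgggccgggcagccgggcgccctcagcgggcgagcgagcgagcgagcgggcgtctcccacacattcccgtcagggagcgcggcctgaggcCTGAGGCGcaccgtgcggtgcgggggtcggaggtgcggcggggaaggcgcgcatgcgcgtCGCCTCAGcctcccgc
Dmc1 (chr15:79605100-79605289, minus strand): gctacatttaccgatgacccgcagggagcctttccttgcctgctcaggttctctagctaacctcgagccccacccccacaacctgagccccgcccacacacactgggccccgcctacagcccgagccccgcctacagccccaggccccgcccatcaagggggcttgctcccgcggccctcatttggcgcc
Sycp3 held 2 E-boxes and 1 E2F match, Tex12 held 1 match to each of the motifs, and Hfm1 held 2 matches to the STRA8 letters. The promoter of Dmc1 held none in this window. Of the 36 measured members, 31 had a promoter in the table, searched over 300 bases per start. In 13 of these (41.9%) the E2F letters occurred, against 7.4% of 15613 measured genes with a promoter. For the STRA8 letters these shares were 8 of 31 (25.8%) and 10.1%, and for the E-box 7 of 31 (22.6%) and 9.5%. A match describes the letters and shows no binding.

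Across the members, 11 of 36 rose in the Sox9 mutant and 0 fell (limma, adjusted p under 0.05). Over all genes 6.94% passed in either direction, 2.64% higher and 4.3% lower. The 11 were Meiob, Sycp3, Smc1b, Dmc1, Tex12, Tex15, Hfm1, Majin, Stag3, Hormad2 and Rec114, and they came from every role except the group of 3 genes with other functions. The median difference of the 36 members was 0.84 log2, against 0.00 over all genes. At an unadjusted p under 0.05, 24 members were higher, against 8.79% of all genes, and 3 were lower, against 12.9%. In 15 members every mutant array lay above every wild-type array, against 12.1% of all genes, and in 4 every mutant array lay below, against 16.6%. The count of 11 depended on single arrays. It was 5 without mutant 3, 4 without mutant 4 or wild type 2, 2 without wild type 1 and 3 without wild type 5, and it was 20 without mutant 6, where 2.74% of all genes were higher.

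**Figure D1:**
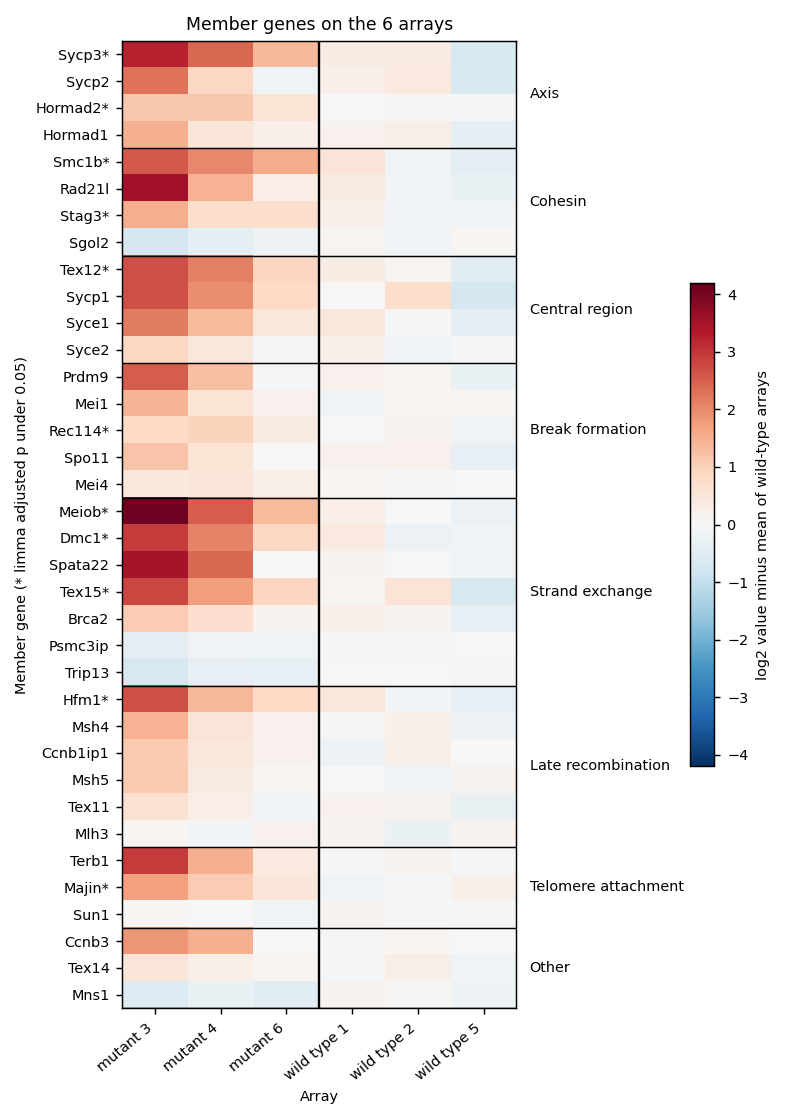
Heat map of the 36 measured members (rows, grouped by role) on the 3 mutant and 3 wild-type arrays (columns), as log2 value minus the mean of the wild-type arrays; an asterisk marks an adjusted p under 0.05. Mutant 3 holds the highest mutant value in 29 of the 36 rows and mutant 6 the lowest in 31.

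Background was marked at 6.67 log2, a level that 95% of 1208 probe sets for olfactory or vomeronasal receptors, genes with little expected expression in gonads, did not exceed in their mean. Both group means lay below it for 7 members (19.4%; 32.9% of all genes) and the wild-type mean alone for another 11, while 16 members lay above it on all 6 arrays. Folds are compressed near background on such arrays, so those of dim members may be understated.

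Among the axis proteins, Sycp3 and Hormad2 rose. Sycp3, which forms the lateral filament of the axis, measured 9.73, 8.90 and 7.87 log2 on mutants 3, 4 and 6, against 6.82, 6.83 and 5.84 on wild types 1, 2 and 5. Its lowest mutant value stood above its highest wild-type value, and the difference of 2.34 ± 0.43 log2 (SE) was 5.05-fold (limma adjusted p = 0.0142). Hormad2, a HORMA-domain protein that watches over unsynapsed axes, measured 8.27, 8.24 and 7.70 log2 on the mutant arrays, against 7.14, 7.18 and 7.04 on the wild-type arrays. Its wild-type arrays lay within a narrow band, all below the mutant arrays, and it rose by 0.95 ± 0.16 log2 (adjusted p = 0.0104). The Sycp3 call was kept without any 1 array (adjusted p up to 0.0492) and lost with eBayes with trend and robust (0.075). That of Hormad2 was lost without wild type 1 alone (0.0505).

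The other axis genes did not pass at the probe sets used. Sycp2, the partner of SYCP3, measured 8.27, 6.88 and 5.83 log2 in the mutant, against 6.21, 6.43 and 5.37 in wild type, with mutant 6 below 2 of the wild-type arrays (difference 0.99 log2, limma adjusted p = 0.354). Hormad1 measured 9.13, 8.16 and 7.84 log2 in the mutant, against 7.83, 7.87 and 7.21 in wild type (difference 0.74, adjusted p = 0.229). Mutant 6 lay among the wild-type values of Hormad1 at this probe set. A second probe set annotated to Hormad1 measured 8.99, 8.18 and 7.93 in the mutant, against 6.85, 6.50 and 6.42 in wild type. There the groups did not overlap and the difference of 1.77 ± 0.25 log2 passed (limma adjusted p = 0.00412), so the call of Hormad1 depends on the probe set. With the mean of both it passed (adjusted p = 0.0282).

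Among 4 measured cohesin genes Smc1b and Stag3 rose. Smc1b, the meiosis-specific SMC subunit, measured 11.37, 10.82 and 10.36 log2 in the mutant, against 9.33, 8.65 and 8.41 in wild type. All 6 values lay well above background and the groups were more than 1 log2 apart, with a difference of 2.05 ± 0.28 log2 or 4.15-fold (limma adjusted p = 0.00367). It was the only member to pass at 0.05 in every alternative fit (adjusted p up to 0.0186) and the only one past a threshold of 0.01. Stag3, the meiosis-specific SA subunit, measured 11.05, 10.29 and 10.27 log2 in the mutant, against 9.76, 9.42 and 9.43 in wild type, and rose by 1.001 ± 0.21 (adjusted p = 0.0259). Its groups did not overlap either, but its call was lost without wild type 1, 2 or 5 (up to 0.0875).

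Rad21l, a meiotic kleisin, measured 7.79, 5.73 and 4.54 log2 in the mutant, against 4.67, 4.17 and 3.999 in wild type. Only mutant 3 lay above the background mark, and the difference of 1.74 ± 0.65 log2 did not pass (limma adjusted p = 0.178). A second probe set annotated to Rad21l gave 1.86 log2 (adjusted p = 0.168). Sgol2, a shugoshin that protects centromeric cohesin, ran the other way. It measured 8.73, 9.03 and 9.21 log2 in the mutant, against 9.54, 9.24 and 9.49 in wild type (difference -0.44, limma adjusted p = 0.144). Its mutant values all lay below its wild-type values, narrowly for mutant 6.

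For comparison, 10 genes of general or mitotic cohesin and its regulators were listed. Pds5a, a cohesin regulator, rose by 0.46 log2 (limma adjusted p = 0.0449), 9 did not pass, and the median difference was 0.15 log2. Rad21, the general kleisin, measured 11.19, 11.52 and 11.69 log2 in the mutant, against 11.97, 11.89 and 11.84 in wild type (difference -0.44, adjusted p = 0.126), and was named after its values were seen.

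In the central region of the synaptonemal complex, 1 of 4 measured genes rose. Tex12, a central element protein, measured 7.95, 7.35 and 6.16 log2 in the mutant, against 5.57, 5.38 and 4.80 in wild type. The 3 wild-type values lay below background and the groups did not overlap (difference 1.90 ± 0.39, limma adjusted p = 0.024). Sycp1, the transverse filament, measured 9.49, 8.74 and 7.62 log2 in the mutant, against 6.76, 7.52 and 6.04 in wild type. Mutant 6 exceeded wild type 2 by little, and the difference of 1.84 ± 0.47 log2 narrowly missed the threshold (adjusted p = 0.0538). Across the alternatives its adjusted p ran from 0.00237 to 0.181. Without mutant 6 it was 0.00917. The call of Tex12 was lost without any 1 array other than mutant 6 (up to 0.0815) and with trend and robust (0.0801).

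Both remaining central element genes overlapped between groups. Syce1 measured 9.70, 8.86 and 7.99 log2 in the mutant, against 7.99, 7.47 and 7.10 in wild type (difference 1.33, limma adjusted p = 0.0845), with mutant 6 level with wild type 1. Syce2 measured 10.60, 10.22 and 9.70 log2 in the mutant, against 9.95, 9.60 and 9.68 in wild type (difference 0.43, adjusted p = 0.318). Syce2 was thus already far above background in wild-type gonads, and Sycp1, Syce1 and Syce2 reached their highest level on mutant 3.

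Of 5 measured genes for the formation of DNA breaks 1 rose, and their median difference was 0.71 log2. Rec114, an axis-bound partner of the break machinery, measured 7.18, 7.25 and 6.68 log2 in the mutant, against 6.33, 6.47 and 6.19 in wild type, and rose by 0.71 ± 0.17 (limma adjusted p = 0.0404). The call of Rec114 was lost without any 1 array other than mutant 6 (up to 0.147). Prdm9, the histone methyltransferase that marks the sites of breaks, measured 8.91, 7.65 and 6.34 log2 in the mutant, against 6.57, 6.47 and 6.10 in wild type. Prdm9 was high on mutants 3 and 4 while mutant 6 lay inside the wild-type range (difference 1.25, adjusted p = 0.216, and 0.0106 without mutant 6).

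Spo11, the enzyme that makes the breaks, measured 7.25, 6.62 and 6.06 log2 in the mutant, against 6.23, 6.22 and 5.69 in wild type (difference 0.60, limma adjusted p = 0.276). Its wild-type values lay below the background mark, and mutant 3 alone lay above it. Mei1, needed for breaks in the mouse, measured 8.03, 7.16 and 6.77 log2 in the mutant, against 6.44, 6.67 and 6.67 in wild type (difference 0.73, adjusted p = 0.18). Mei4, the binding partner of REC114, measured 6.93, 6.99 and 6.73 log2 in the mutant, against 6.55, 6.41 and 6.46 in wild type (difference 0.41, adjusted p = 0.0847). Mei1 and Mei4 had no overlap between groups and did not pass.

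Strand exchange genes held the widest range of differences, with 3 of 7 measured members higher. Meiob, a single-strand DNA binding protein of recombination sites, measured 8.10, 6.57 and 5.33 log2 in the mutant, against 4.28, 3.99 and 3.77 in wild type. Its wild-type values and 2 of its mutant values lay below background, yet no values overlapped, and its difference of 2.65 ± 0.55 log2 or 6.28-fold was the largest among members (limma adjusted p = 0.0237). Spata22, which binds MEIOB and acts with it in the mouse, measured 7.997, 6.95 and 4.55 log2 in the mutant, against 4.71, 4.53 and 4.40 in wild type. Mutants 3 and 4 were more than 2 log2 above wild type, whereas mutant 6 lay within the wild-type range, and Spata22 did not pass (difference 1.96 ± 0.68, adjusted p = 0.15). Without mutant 6 its adjusted p was 0.000731. The call of Meiob was lost without mutant 4 or any 1 wild-type array (up to 0.0823) and with trend and robust (0.114).

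Dmc1, the meiotic recombinase, measured 9.27, 8.43 and 7.22 log2 in the mutant, against 6.75, 6.10 and 6.18 in wild type. The difference was 1.96 ± 0.43 log2, 3.9-fold, with no overlap (limma adjusted p = 0.0293). Tex15, a partner of recombination and transposon silencing, measured 9.82, 8.78 and 7.93 log2 in the mutant, against 7.12, 7.60 and 6.33 in wild type, and rose by 1.82 ± 0.45 (adjusted p = 0.048). Leaving out any 1 array other than mutant 6 ended both calls (up to 0.094 for Dmc1 and 0.146 for Tex15), as did trend and robust (0.118 and 0.166). Further quantile normalization ended that of Tex15 (0.0609).

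Brca2, which acts in recombination with DMC1 and also in somatic cells, measured 9.43, 9.07 and 8.52 log2 in the mutant, against 8.56, 8.50 and 8.01 in wild type (difference 0.65, limma adjusted p = 0.162). Psmc3ip, the HOP2 partner of DMC1, measured 7.67, 7.93 and 7.92 log2 in the mutant, against 8.15, 8.05 and 8.07 in wild type (difference -0.25, adjusted p = 0.294). Trip13, the ATPase that strips HORMA-domain proteins and also serves the spindle checkpoint of dividing cells, measured 9.52, 9.86 and 9.86 log2 in the mutant, against 10.19, 10.19 and 10.24 in wild type. Trip13 and Psmc3ip were lower on all 3 mutant arrays and did not pass (Trip13 difference -0.46 ± 0.13 log2, adjusted p = 0.0748). Trip13 passed as lower in 3 alternatives: above the background mark alone (0.0405), with trend and robust (0.0418) and with numbers 5 and 6 as a supposed batch (0.0476).

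**Figure D2:**
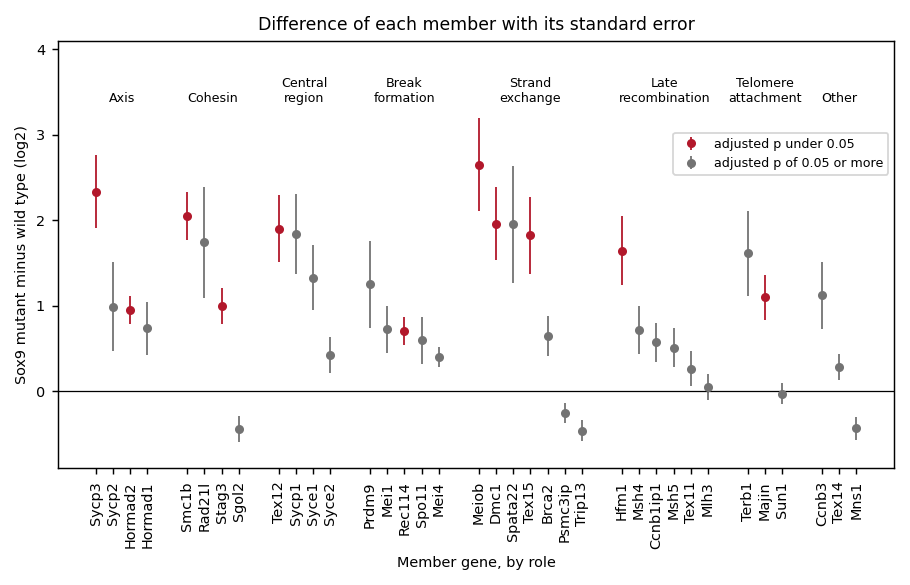
Difference between the Sox9 mutant and wild type (log2, vertical axis) for each member with its moderated standard error, grouped by role along the horizontal axis, with 3 arrays per group. Differences run from 2.65 (Meiob) to -0.46 (Trip13), and 1 of the 6 late recombination genes passes.

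Late recombination and crossover genes had the smallest median difference of the recombination roles. Hfm1, a helicase needed for crossovers in the mouse, measured 9.19, 7.90 and 7.35 log2 in the mutant, against 6.97, 6.37 and 6.17 in wild type. It alone passed among 6 measured genes, at 1.64 ± 0.41 log2 (limma adjusted p = 0.0487), and its second probe set gave 1.87 log2 (adjusted p = 0.0125). Any 1 array left out other than mutant 6 ended its call (up to 0.143), as did further quantile normalization (0.067) and trend and robust (0.147), which left 0 of 6 late genes called. Msh4 measured 7.35, 6.44 and 6.07 log2 in the mutant, against 5.95, 6.11 and 5.65 in wild type (difference 0.72, adjusted p = 0.203). Msh5, with which it forms the MutSγ clamp, measured 7.67, 6.96 and 6.66 log2 in the mutant, against 6.60, 6.43 and 6.72 in wild type (difference 0.51, adjusted p = 0.264). In both, mutant 3 stood highest and mutant 6 lay inside the wild-type range. Mutant 3 alone lay above the background mark for Msh4.

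Ccnb1ip1, the ubiquitin ligase HEI10, measured 8.37, 7.75 and 7.45 log2 in the mutant, against 7.03, 7.52 and 7.30 in wild type (difference 0.57, limma adjusted p = 0.204). Tex11, an X-linked crossover gene, measured 7.86, 7.52 and 7.10 log2 in the mutant, against 7.41, 7.37 and 6.92 in wild type (difference 0.26, adjusted p = 0.556). Mlh3, the MutL homolog of crossover resolution, measured 7.91, 7.71 and 8.03 log2 in the mutant, against 7.97, 7.55 and 7.98 in wild type (difference 0.05 ± 0.15, adjusted p = 0.906). Mlh3 was the only late gene without its highest mutant value on mutant 3, and its difference changed sign without mutant 6 or without wild type 2.

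Setting the axis and cohesin genes against the late recombination genes, 4 of 8 and 1 of 6 rose. Their median differences were 0.996 and 0.54 log2. On mutants 3, 4 and 6 the axis and cohesin median stood 1.89, 0.998 and 0.42 log2 above the wild-type mean, and the late recombination median stood 1.09, 0.42 and 0.17 above it. The first was the larger on each mutant array. Axis and cohesin genes did not lead the roles. Taken apart, the axis median was 0.97 log2 and the cohesin median 1.37. Median differences were 1.82 log2 for strand exchange, 1.59 for the central region and 1.10 for telomere attachment. They were 0.71 for break formation and 0.28 for other functions. Without mutant 3 the late recombination median was 0.27 log2, and the axis and cohesin medians were 0.61 and 0.80. The roles overlap gene by gene. At the probe sets used, Hfm1 exceeded Stag3, Sycp2, Hormad2 and Hormad1, while Sgol2 lay below every late gene. The difference between roles was not tested.

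Genes that tie telomeres to the nuclear envelope split. Majin, of the meiotic telomere complex, measured 8.25, 7.58 and 7.04 log2 in the mutant, against 6.36, 6.48 and 6.72 in wild type, and rose by 1.10 ± 0.26 (limma adjusted p = 0.042; lost without any 1 array other than mutant 6, up to 0.167, with further quantile normalization, 0.0525, and with trend and robust, 0.054). Its partner Terb1 measured 7.98, 6.53 and 5.45 log2 in the mutant, against 4.98, 5.18 and 4.95 in wild type, without overlap but with a wide mutant spread (difference 1.62 ± 0.50, adjusted p = 0.105). Only mutant 3 lay above the background mark for Terb1. Sun1, an inner nuclear membrane protein that somatic cells express as well, measured 9.43, 9.34 and 9.16 log2 in the mutant, against 9.48, 9.29 and 9.24 in wild type (difference -0.03 ± 0.12, adjusted p = 0.939). Its sign changed between scalings.

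Of the 3 genes with other functions 0 passed in limma, with 1 higher and 1 lower at an unadjusted p under 0.05. Ccnb3, a cyclin of meiotic cells, measured 6.36, 5.99 and 4.49 log2 in the mutant, against 4.40, 4.58 and 4.49 in wild type. All 6 values lay below background, with mutants 3 and 4 above the wild-type arrays and mutant 6 level with them (difference 1.12, limma adjusted p = 0.149, and 0.000712 without mutant 6). Tex14, of the bridges between germ cells, measured 10.26, 9.99 and 9.87 log2 in the mutant, against 9.68, 10.01 and 9.58 in wild type (difference 0.28, adjusted p = 0.366). Mns1, of motile cilia and the sperm tail, measured 8.10, 8.38 and 8.23 log2 in the mutant, against 8.83, 8.70 and 8.47 in wild type (difference -0.43, adjusted p = 0.11). Mns1 was lower on every mutant array.

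**Figure D3:**
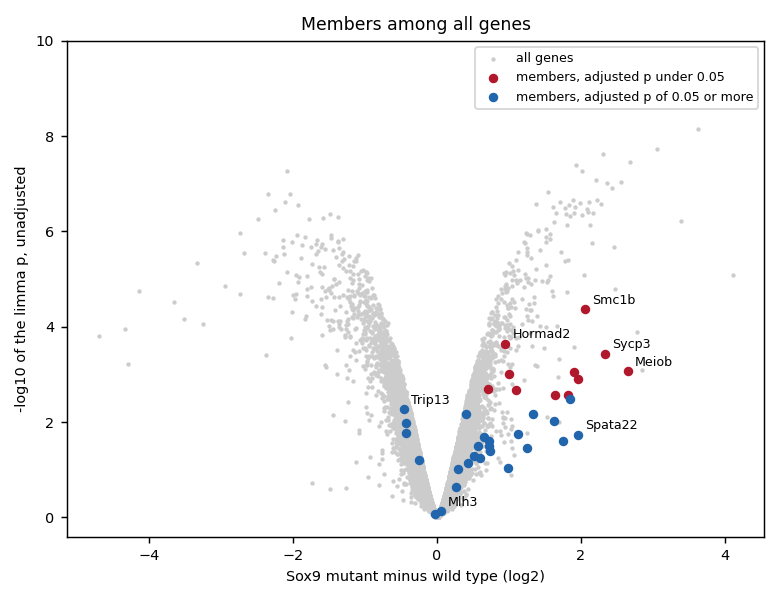
Each of 19937 genes by its difference between Sox9 mutant and wild type (log2, horizontal axis) and the negative log10 of its unadjusted limma p (vertical axis), with members in colour. Smc1b lies highest among members at a difference of 2.05, Meiob farthest right at 2.65, and Trip13 farthest left at -0.46.

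The mutant pools differed from each other in these genes more than the wild-type pools did. The standard deviation over the 3 mutant arrays exceeded that over the wild-type arrays in 33 of 36 members, a count not made over all genes. The medians were 0.60 and 0.24 log2, against 0.15 and 0.13 over all genes. Both means of 7 members and the wild-type mean alone of another 11 lay below background, where compression may narrow the spread. Among members above background on all 6 arrays, Smc1b had 0.50 and 0.47 log2, Stag3 0.45 and 0.19, and Hormad2 0.32 and 0.07. Tex14, Mlh3 and Mns1, also above it on all 6, had the larger spread in wild type. Mutant 3 had the highest mutant value in 29 members (80.6%; 35.1% of all genes), and mutant 6 had the lowest in 31 (86.1%; 41.2% of all genes). Member medians stood 1.47, 0.81 and 0.19 log2 above the wild-type mean on mutants 3, 4 and 6. Mutant 3 exceeded every wild-type array in 30 members (83.3%; 33.5% of all genes) and mutant 4 in 29 (80.6%; 30.5% of all genes), and mutant 6 did so in 16 (44.4%; 26.7% of all genes). Within the arrays numbered 1 to 4 the members' median difference was 1.06 log2 and 17 were higher (1.92% of all genes), and between mutant 6 and wild type 5 it was 0.40 log2, with 30 members positive and no test possible.

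Genes of meiotic entry were shifted on every mutant array. All 8 measured genes of that list rose (median 2.67 log2, and 3.40, 2.57 and 1.72 on mutants 3, 4 and 6); the list had been drawn up with earlier results of these data known. Stra8, which starts the meiotic programme, measured 9.05, 8.42 and 7.92 log2 in the mutant, against 5.50, 4.76 and 4.96 in wild type. Meioc, which prolongs meiotic prophase, rose by 4.11 log2, Taf7l by 2.84 and M1ap by 2.78 (limma adjusted p = 0.00147, 0.0227 and 0.00712). Every mutant array lay above every wild-type array in all 8, including mutant 6, where Spata22, Prdm9 and Ccnb3 lay within the wild-type range.

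A wider list of 35 other meiotic and repair genes had 29 measured, of which 1 rose (2.64% of all genes did) and 28 did not pass. The riser was Rec8, the meiotic kleisin, which is also counted in the meiotic entry list; it rose by 2.55 log2 (limma adjusted p = 0.000227), with mutant values of 9.97, 9.63 and 9.41 against 7.35, 6.90 and 7.11 in wild type. Rec8 varied less between mutant arrays than Rad21l or Sycp3. The list's median difference was 0.41 log2, and mutant 3 again held the highest mutant value in 24 of 29 and mutant 6 the lowest in 24. Without mutant 6, 12 of the 29 rose, against 2.74% of all genes.

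Markers of the cells in these gonads moved in their own ways. Ddx4 and Dazl, expressed throughout fetal germ cells, measured 11.06, 11.10 and 11.11 log2 (Ddx4) and 11.68, 11.62 and 11.67 (Dazl) in the mutant, against 10.91, 10.95 and 10.87 and 11.49, 11.36 and 11.20 in wild type (limma adjusted p = 0.409 and 0.184). In both, every mutant array lay above every wild-type array, and the 3 mutant arrays were nearly level. Sycp3 spanned 9.73 to 7.87 log2 on the same arrays. The part of germ cell number in the members' differences was not tested. In the germ cell list of 12 measured genes 0 rose and 4 fell, namely Dppa3 (-1.55), Utf1 (-1.39), Dnd1 (-0.83) and Prdm1 (-0.74 log2). At an unadjusted limma p under 0.05, 7 were lower and 3 higher, namely Tfap2c (0.66), Kit (0.51) and Dazl (0.31 log2). Dppa3 and Utf1 belong to the pluripotent-like state of early germ cells, and Prdm1 specifies them. Mutant 3 held the lowest mutant value in 10 of the 12, and the list median was -0.83, -0.41 and -0.26 log2 on mutants 3, 4 and 6. Of 10 oocyte genes Sohlh2, a germ cell transcription factor, rose by 0.64 log2 (limma adjusted p = 0.0272) and 9 did not pass, with both group means of 6 below background.

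Among male germ cell genes 5 of 12 fell, led by Lefty2 (-2.37), Lefty1 (-2.03), Tdrd5 (-1.25) and Nodal (-0.91 log2), and 7 did not pass. At an unadjusted limma p under 0.05, 6 were lower and 1 higher, Mov10l1 (0.69 log2). Of the somatic lists, Sertoli genes fell in 10 of 12, led by Amh (-4.33), Cst9 (-4.14), Hsd17b3 (-3.51) and Aard (-2.94 log2). Leydig genes fell in 4 of 4, Cyp11a1 (-4.70), Cyp17a1 (-4.29), Star (-3.34) and Hsd3b1 (-2.34 log2). Pregranulosa genes rose in 9 of 9, led by Fst (3.62), Bmp2 (2.11), Runx1 (1.93) and Irx3 (1.90 log2). Sox9 itself measured 7.52, 7.78 and 7.60 log2 in the mutant, against 8.82, 8.81 and 9.20 in wild type, above the background mark on all 6 arrays. In the Sertoli and Leydig lists the mutant arrays did not rank as they did in the members. Mutant 4 held the highest mutant value in 12 of 12 Sertoli genes and 4 of 4 Leydig genes. Amh measured 5.91, 8.91 and 5.89 log2 on mutants 3, 4 and 6. Foxl2, a factor of ovarian supporting cells, measured 8.37, 8.45 and 8.24 there, and list medians of pregranulosa genes were 1.88, 1.63 and 1.69 log2. Mutant 6 held the lowest mutant value in 8 of 12 male germ cell genes. The part of these cells in the members' differences was not tested.

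**Figure D4:**
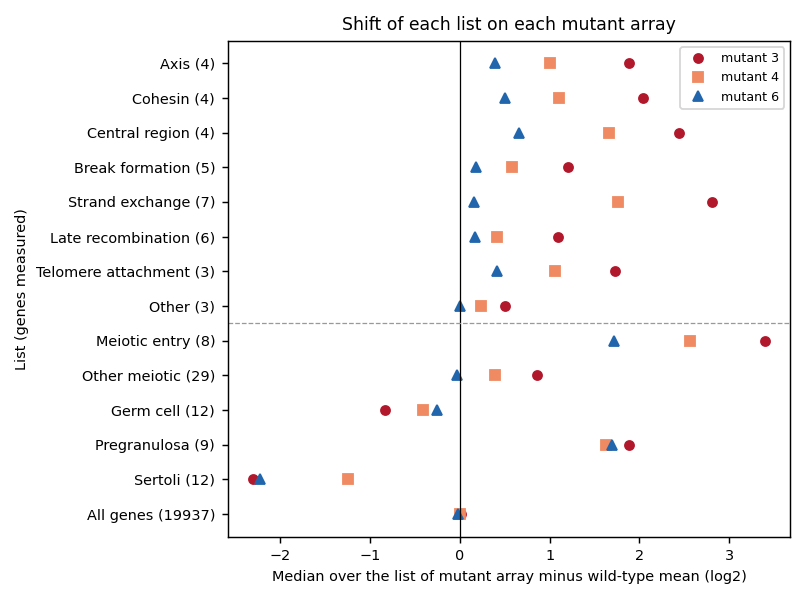
Median over each list (vertical axis, genes measured in brackets) of the value on mutants 3, 4 and 6 minus the wild-type mean (log2, horizontal axis); roles of the members stand above the dashed line. Mutant 3 lies highest for every member role, while Sertoli genes are least reduced on mutant 4 (-1.25) and pregranulosa medians lie between 1.63 and 1.88.

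Wild type 5 stood apart among the wild-type arrays. All 7 measured liver genes were highest there among the wild-type arrays, and none passed in limma (1 lower at an unadjusted p under 0.05). Alb measured 6.03, 5.60 and 6.60 log2 in the mutant, against 5.94, 6.06 and 11.42 in wild type, and Afp measured 6.05, 5.85 and 6.33 in the mutant, against 5.64, 5.79 and 11.26 in wild type. The brightest of the list, Apoa2 and Apoa1, differed by -0.74 and -0.63 log2 (adjusted p = 0.41 and 0.681). It was likewise the highest wild-type array in 4 of 5 erythroid and 5 of 6 macrophage genes, and the lowest in 0 of each. Among the 36 members wild type 5 was lowest in 23 and highest in 5. Among the 29 other meiotic genes it was lowest in 19 and highest in 2. These shares were not counted over all genes. Without wild type 5 the members' median difference was 0.72 log2. Of 6 endothelial genes 0 passed in limma (1 higher and 2 lower at an unadjusted p under 0.05). Their median difference was -0.26 log2, and Kdr at 0.38 was the only positive one, with Cdh5 at -0.28. Of 6 macrophage genes 0 passed (1 at an unadjusted p under 0.05), with a median of 0.00 log2 and Csf1r and Cx3cr1 both at 0.00. Of 6 mesonephric genes Emx2 rose by 1.61 and Gata3 by 1.20 while Lhx1 fell by 0.96 log2, and of 5 erythroid genes Alas2 fell by 0.51 log2. Their part in the members' differences was not tested.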

How the data were processed

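RNA of 6 pools of E13.5 mouse gonads was measured on Affymetrix arrays, 300 ng of total RNA each per the labels. The deposited values are log2 values made by the authors with RMA, per the submitters' processing notes; the sources used here give neither its version nor its settings. They ran from 2.45 to 14.49. Of 34760 rows, 6573 with identifiers below the lowest annotated one were left out as the control block. The other 28187 probe sets were fitted with limma 3.58.1 in R 4.3.3 (lmFit, eBayes, 2-sided, 4 residual degrees of freedom), with Benjamini-Hochberg adjustment over all of them and a threshold of 0.05. The number of arrays limits the precision. Errors beside differences are moderated standard errors. Genes were named from probe sets annotated to 1 gene (21640). The labels give the groups no shared number, so nothing was paired. Correlations over probe sets were 0.984 to 0.992 within groups and 0.969 to 0.985 between them. The fit was checked on simulated data with independent noise of equal spread in both groups. That check does not cover the unequal spread of the members. The members and lists were chosen with earlier results of these data known. All members are named; context lists are represented by up to 4 of their largest called changes or, with none called, their 2 brightest genes, beside Sox9, Stra8, Ddx4, Dazl, Amh, Foxl2, Afp and Alb. Figures were drawn with matplotlib 3.10.9.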

Additional observations from a re-analysis of the deposited data

How the results depend on the processing

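No paired analysis was possible because the groups share no label number. The count of 11 members called, all higher, became 8 with further quantile normalization, which ended Hfm1, Majin and Tex15. It became 5 (4 higher and 1 lower, Trip13) with eBayes with trend and robust, which ended these and Dmc1, Meiob, Sycp3 and Tex12. It became 17 (17 higher) with array weights and 19 (18 higher and 1 lower) with numbers 5 and 6 as a batch. The labels name no batch, so this term is a supposition from the label numbers. The count became 17 (17 higher) within numbers 1 to 4 alone (chosen after seeing the data), and 1 (1 higher, Smc1b) at a threshold of 0.01. Above the background mark, 12 of 27 members passed, 11 higher and 1 lower. Leaving out 1 array gave 2 to 20 members called, 2 to 20 higher. All 11 were kept with array weights, with the batch term and without mutant 6. The other meiotic genes higher numbered 1, with 4 above the background mark, 2 with trend and robust, 7 with array weights, 8 with the batch term and 9 within numbers 1 to 4, and 1 to 12 with 1 array left out. The median of the group with other functions was 0.28 log2 and -0.0742 above the mark, where Ccnb3 was not measured. Sun1, at -0.03 log2, reversed to 0.0387 with further quantile normalization, 0.0489 without mutant 6, 0.0451 without wild type 1 and 0.0011 within numbers 1 to 4, and ran from -0.0866 to 0.0489 with 1 array left out; Mlh3, at 0.05, reversed to -0.0224 without mutant 6 and -0.0905 without wild type 2, and ran from -0.0905 to 0.1364. Beyond these, no member changed sign. Mnd1, read from a probe set that names 2 genes, gave -0.44 log2 (limma adjusted p = 0.132). Dim members, near background in wild type, limit what their folds can show.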
